A study of Mus musculus with 12 samples.

Results

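The replication-dependent histone genes encode the bulk of the histone protein that packages newly made DNA. They were taken as every gene with a probe set of its own whose symbol starts with H2ac, H2bc, H3c or H4c and a number, is H1f1 to H1f5, or carries the older Hist1h to Hist4h names. The rule found 26 genes, each with 1 probe set, among 19938 genes of the array. They were 4 genes for the linker histone H1 (H1f1, H1f2, H1f3 and H1f5), 4 for H2A, 9 for H2B, 3 for H3 and 6 for H4. Of these, 24 passed the filter on low levels, with 15950 genes tested in all. H2ac8 and H3c7 had a mean below it and were not tested.

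Levels came from 12 embryoid body samples, grown from A2lox mouse embryonic stem (ES) cells (strain 129P2/OlaHsd). Embryoid bodies are clumps of ES cells that leave pluripotency and start to form germ layers, and doxycycline (dox) turns on a transgene in these lines. In the knockdown line dox, at 0.5 µg/ml from day 0, induced microRNAs that target Geminin (gene Gmnn), a protein that blocks renewed licensing of replication origins. Its 3 dox and 3 untreated control samples were collected on day 4. In the overexpression line the same dose from day 3 induced Geminin itself. Replicates 1 and 2 of this line were collected on day 5 and replicate 3 on day 4, with 1 dox and 1 untreated sample each, so that day cannot be told apart from replicate 3. The labels do not say how many clones each line represents or whether replicates were separate cultures. The p-values therefore cover the spread among these samples and no more, and that spread may be technical.

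Replication-dependent histone genes lie mostly in clusters, lack introns, and are transcribed strongly in S phase, when new DNA needs packaging. Their mRNAs end in a conserved stem-loop, bound by the protein Slbp, in place of a poly(A) tail, and are degraded when replication stops. Histones H2A, H2B, H3 and H4 form the nucleosome core, and H1 binds the linker DNA. Target was made here from total RNA by a whole-transcript protocol.

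In RefSeq, 4 of the 26 genes (H2bc21, H3c15, H4c14 and H2bc18) lay on chromosome 3 and the other 22 on chromosome 13. These groups are called the smaller and the larger cluster here. They were split by chromosome alone, and distances between genes were not measured. A RefSeq promoter window (build GRCm38.p6) was matched to 22 of the 26. In the 250 bases upstream of the start, both strands were searched for 3 motifs, each counted on its own, so that matches of different motifs may share bases. The CCAAT box (CCAAT) was found in 18 of the 22 windows (81.8%), against 33.8% of 32851 windows of all genes. The TATA box (TATAAA) was found in 14 (63.6%), against 12.4% of all windows. The octamer ATTTGCAT, a site of Oct factors known from H2B promoters, was found in 8 (36.4%), against 1.6% of all windows. It was in 5 of 7 H2B and 3 of 4 H2A windows and in none of the 4 H1, 2 H3 and 5 H4 windows. The following stretches, the 150 bases before the start, are shown for the members whose knockdown dox and control arrays did not overlap and that have a window, apart from H4c9. H2bc3 adds an H2B promoter. H2ac4 and H2bc3 follow each other in the order of the members of the larger cluster, and H3c15 lies in the smaller one. Each is given 5′ to 3′ on the gene's strand, with every motif match on either strand in capitals.
H2ac4, chr13:23750938-23751087, + strand: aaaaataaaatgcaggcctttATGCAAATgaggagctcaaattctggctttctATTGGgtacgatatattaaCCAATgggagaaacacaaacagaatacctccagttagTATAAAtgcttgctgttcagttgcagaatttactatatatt
H2bc3, chr13:23746584-23746733, + strand: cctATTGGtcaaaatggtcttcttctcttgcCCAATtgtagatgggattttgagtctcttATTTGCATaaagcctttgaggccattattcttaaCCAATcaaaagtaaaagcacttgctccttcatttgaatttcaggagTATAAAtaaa
H2ac15, chr13:21753913-21754062, - strand: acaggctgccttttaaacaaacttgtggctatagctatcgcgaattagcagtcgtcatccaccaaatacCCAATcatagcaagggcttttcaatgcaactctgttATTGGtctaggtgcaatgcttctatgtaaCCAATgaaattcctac
H4c4, chr13:23581418-23581567, + strand: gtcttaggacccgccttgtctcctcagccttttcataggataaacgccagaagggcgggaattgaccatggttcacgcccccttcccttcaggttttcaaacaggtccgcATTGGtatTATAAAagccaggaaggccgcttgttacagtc
H3c15, chr3:96239128-96239277, - strand: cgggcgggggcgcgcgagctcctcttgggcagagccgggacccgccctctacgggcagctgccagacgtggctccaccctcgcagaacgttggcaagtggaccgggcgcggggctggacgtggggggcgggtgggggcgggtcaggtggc
The H2ac4 and H2bc3 stretches hold all 3 motifs. The H2ac15 stretch holds 3 CCAAT boxes, and that of H4c4 has 1 CCAAT box and 1 TATA box. The GC-rich H3c15 stretch holds none of the motifs.

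Each array gave 35512 probe-set intensities, with array means between 677.3 and 696.6. Levels are given as log2(intensity + 1) after quantile normalization, and differences between them are log2 differences. No arrays were identical (highest correlation 0.9941). Gmnn was lower with dox in every knockdown replicate (10.33 and 9.66, 10.15 and 9.74, 10.05 and 9.63, without and with dox). It was higher with dox in every overexpression replicate (10.35 and 11.04 on day 4, then 10.29 and 11.38, and 10.15 and 10.83). Of 10 measured germ layer markers, 8 lay above the filter level on all arrays.

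The filter lay at a log2 level of 6.46 (intensity 86.7), the 20th percentile of all genes' means. H3c15 (mean 6.49) and H2bc8 (mean 6.51) lay just inside it. H2ac8 (mean 5.48, from 4.94 to 6.05) and H3c7 (mean 4.28, from 3.31 to 4.83) lay outside. H1f1 ranged over the 12 arrays from 12.65 to 13.08 and H1f5 from 13.04 to 13.31. H2ac15 ranged from 12.58 to 12.81, H2bc14 from 11.36 to 11.82, H3c4 from 6.63 to 7.32 and H4c14 from 12.41 to 12.69. Levels of different probe sets are not compared here. H2ac1 had the widest range of the tested members, from 8.18 to 10.84. It encodes TH2A, an H2A variant best known from testis and oocytes, and shares its promoter region with H2bc1 (TH2B).

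In the knockdown line, core histone genes lay mostly lower with dox, by small amounts that did not pass the test for any single gene. Of the 24 genes, 20 had a fitted difference below 0, as did 47.3% of all genes tested. Their median difference was -0.13, against 0.01 over all genes. Without single arrays the count below 0 ran from 16 (without dox replicate 1) to 20, and the median from -0.16 to -0.11. The H2A genes (3 of 3), the H4 genes (6 of 6) and 8 of 9 H2B genes lay below 0. Both H3 genes lay above it, at low mean levels (6.97 for H3c4 and 6.49 for H3c15). H1 was near 0, with 3 of 4 genes below it, though all 4 were above 0 when arrays were centred on their medians. That scaling left 17 of the 24 below 0, with a median of -0.030. Relative to the median of all genes, 20 were lower under each of the 3 scalings. Among the 17 members with a mean level above 8, 16 lay lower, with a median of -0.14. No histone gene was called by limma (Benjamini-Hochberg adjusted p under 0.05), and 1 gene of the 15950 was (0.00627%). At an unadjusted p under 0.05, 2 members were lower (1.59% of all genes) and 1 was higher (2.17% of all genes), 3.76% of all genes in either direction. Without single arrays this member count ran from 3 to 7 and that over all genes from 207 to 1236. It was 7 without control replicate 1, and 5 without dox replicate 1 or control replicate 3. In bulk samples, fewer cells of a type and less RNA per cell cannot be told apart.

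H2ac4, a canonical H2A gene, had the clearest lower level. Its control arrays read 10.51, 10.56 and 10.62, and its dox arrays 10.07, 10.19 and 10.19 (replicates 1 to 3). All 3 dox arrays lay below all 3 controls, the smallest gap being wider than the spread within either group. The group means were 10.56 ± 0.053 and 10.15 ± 0.066 (SD, n = 3 each). The fitted difference was -0.41 ± 0.084 (SE), or 1.33-fold lower (95% interval -0.60 to -0.23; limma adjusted p = 0.965 over all genes). Such a complete separation of 3 from 3 arrays has an exact two-sided permutation p of 0.1, the smallest this design allows.

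H4c14, from the smaller cluster, encodes histone H4. It read 12.64, 12.60 and 12.69 in the controls and 12.42, 12.44 and 12.42 with dox. The groups did not overlap, and the fitted difference was -0.22 ± 0.074 (SE; limma adjusted p = 0.965). H4c4 read 12.51, 12.48 and 12.53 in the controls and 12.38 on each dox array, where it took the same rank. H2ac15 read 12.78, 12.81 and 12.77 without and 12.68, 12.70 and 12.60 with dox. H4c9 read 8.42, 8.34 and 8.45 without and 8.26, 8.24 and 8.32 with dox. These 5 genes were all the members whose 3 dox arrays lay below all 3 controls (20.8% of the 24, against 3.25% of all genes). Only quantile normalization was used for that count.

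H3c15, an H3 gene of the smaller cluster, went the other way. It read 5.74, 6.28 and 5.86 in the controls and 6.62, 6.57 and 6.94 with dox. It was the single member whose dox arrays lay above all controls (4.97% of all genes did so). Its fitted difference was 0.75 ± 0.144 (SE; limma adjusted p = 0.965). The gene passed the filter of 6.46 through its other 9 arrays (mean 6.67), while its 3 knockdown controls averaged 5.96. Each contrast that uses these controls therefore sets levels near background against a gene admitted by its higher arrays, and is given as a description. H3c4 read 6.78, 6.63 and 6.96 without and 7.32, 6.88 and 6.99 with dox, so that the groups overlapped. The plot of these 6 genes in the 12 arrays shows each value.

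**Figure D1:**
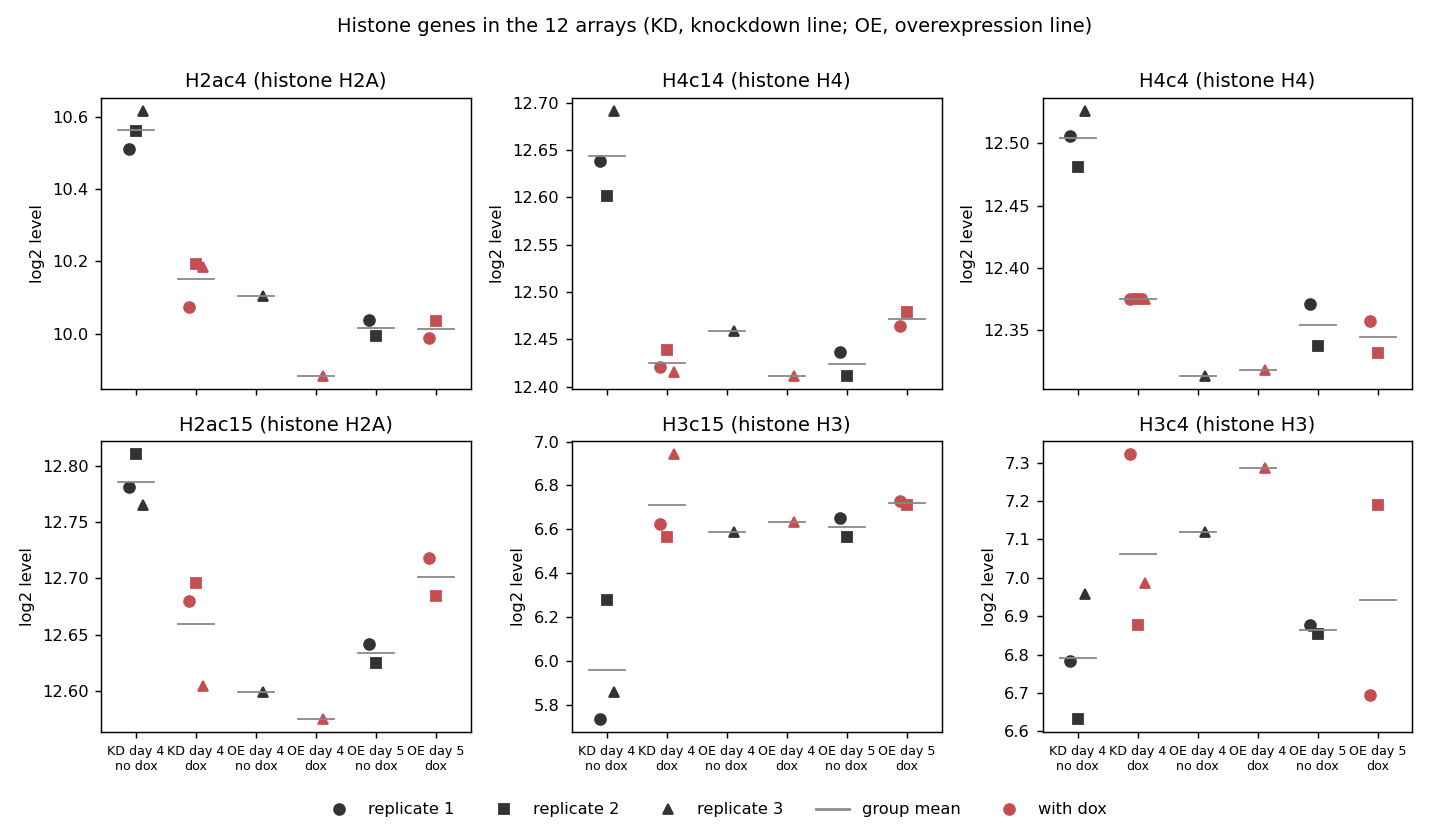
Log2 level (vertical axis, a separate scale in each panel) of 6 histone genes in each of the 12 arrays, by line, day and dox (horizontal axis), with grey lines for group means and red for dox. The 3 knockdown controls of H2ac4 lie between 10.51 and 10.62, above all other arrays, and those of H3c15 between 5.74 and 6.28, below all others.

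The count of lower genes was alike in the 3 knockdown replicates. The median dox difference of the 24 genes was -0.14, -0.13 and -0.16 in knockdown replicates 1, 2 and 3, with 17, 18 and 18 genes lower. Over all genes these medians were 0.0073, 0.015 and 0.032. Lower in all 3 replicates were 11 members (45.8%, against 12.2% of all genes): H2ac1, H2ac4, H2ac15, H2bc3, H2bc9, H2bc14, H4c4, H4c6, H4c8, H4c9 and H4c14. Higher in all 3 were H3c4 and H3c15 (8.33%, against 19.5% of all genes). H2bc21, with differences of -0.39, -1.17 and 1.31, and H2bc8, with 0.30, -0.53 and 1.03, had the widest ranges over the 3 replicates among the tested members. Both had knockdown arrays below the filter of 6.46, H2bc21 at 5.74 in control replicate 3 and 6.29 in dox replicate 2.

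With dox, markers of visceral endoderm, the extra-embryonic layer that surrounds the early embryo, also lay lower in the knockdown line. All 8 had a fitted difference below 0, with a median of -0.34. Their summed intensity ran from 3471 to 10800 in the controls and from 2538 to 8351 with dox. Of 10 germ layer markers, 7 lay higher with dox (median 0.35), with Eomes, a factor of the primitive streak, at 0.88 ± 0.559 (SE; limma adjusted p = 0.965). Their summed intensity ran from 10920 to 15410 in the controls and from 12500 to 17930 with dox. No marker of either list was called, and the part of these cells in the histone differences was not tested. Summed feeder fibroblast markers ran from 1271 to 1678 in the controls and from 1354 to 1412 with dox, and 5 of 8 of them lay above the filter level on all arrays.

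Genes that make and process histone mRNA, and those for chaperones and S phase, lay mostly above 0. Of 20 measured genes for histone mRNA synthesis and processing, 17 lay higher with dox in the knockdown line, with a median of 0.088. Eri1, the exonuclease that trims the stem-loop end, was the one gene of this list at an unadjusted p under 0.05 (0.22 ± 0.094, SE; limma adjusted p = 0.965). Of 21 histone chaperones, 20 lay higher (median 0.072). Of 33 genes for replication licensing and S phase, 26 lay higher (median 0.046), and of 9 genes for G2 and mitosis, 7 did. Of 9 tested replication-independent histone genes, 7 lay lower (median -0.078), and 4 of 9 did when arrays were centred on their medians. None of these genes was called, and 2 (Eri1 and the S phase cyclin Ccne2) had an unadjusted p under 0.05.

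In the overexpression line the differences with dox were small. Of the 24, 19 had a difference below 0 (43.3% of all genes did), and the median was -0.047, against 0.014 over all genes. Without single arrays the median ran from -0.075 (without the day 5 dox array of replicate 2) to -0.017 (without the day 4 control), and the count fell to 14 without either day 4 array or the day 5 dox array of replicate 1. All 9 H2B genes, 5 of 6 H4, 2 of 3 H2A and 3 of 4 H1 genes lay below 0, and both H3 genes above it. With arrays centred on their medians, 22 of the 24 lay below 0. No member was called by limma, and none had an unadjusted p under 0.05 (0.345% of all genes were higher and 0.589% lower at that p). In all, 1 of 15950 genes was called (0.00627%), and 149 had an unadjusted p under 0.05 (0.934%). H4c9 had the smallest p. It read 8.50 and 8.28 on day 4, then 8.72 and 8.53, and 8.34 and 8.22 on day 5, without and with dox, a fitted difference of -0.17 ± 0.116 (SE; limma adjusted p = 0.9999). It was -0.072 without the day 5 control of replicate 1 and -0.29 without that of replicate 2. H4c6 had a difference of -0.15 ± 0.119 (SE), which was -0.24 without the day 5 dox array of replicate 1 and -0.047 without that of replicate 2. H3c4 had one of 0.11 ± 0.152 (SE), and -0.025 without the day 5 dox array of replicate 2.

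The replicates of this line differed. The median over the 24 genes was -0.090 in replicate 3 (day 4), -0.042 in replicate 1 and 0.035 in replicate 2 (day 5), with 18, 16 and 11 genes lower. Lower in all 3 replicates were H1f2, H2ac1, H2bc21, H4c6, H4c8 and H4c9 (25.0% of the 24, against 10.5% of all genes). H3c15 alone was higher in all 3 (4.17%, against 16.6% of all genes), by 0.044, 0.075 and 0.143. H2ac4 read 10.10 and 9.88 on day 4, then 10.04 and 9.99, and 9.99 and 10.04 on day 5, without and with dox. H4c14 lay between 12.41 and 12.48 on all 6 arrays of the line.

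**Figure D2:**
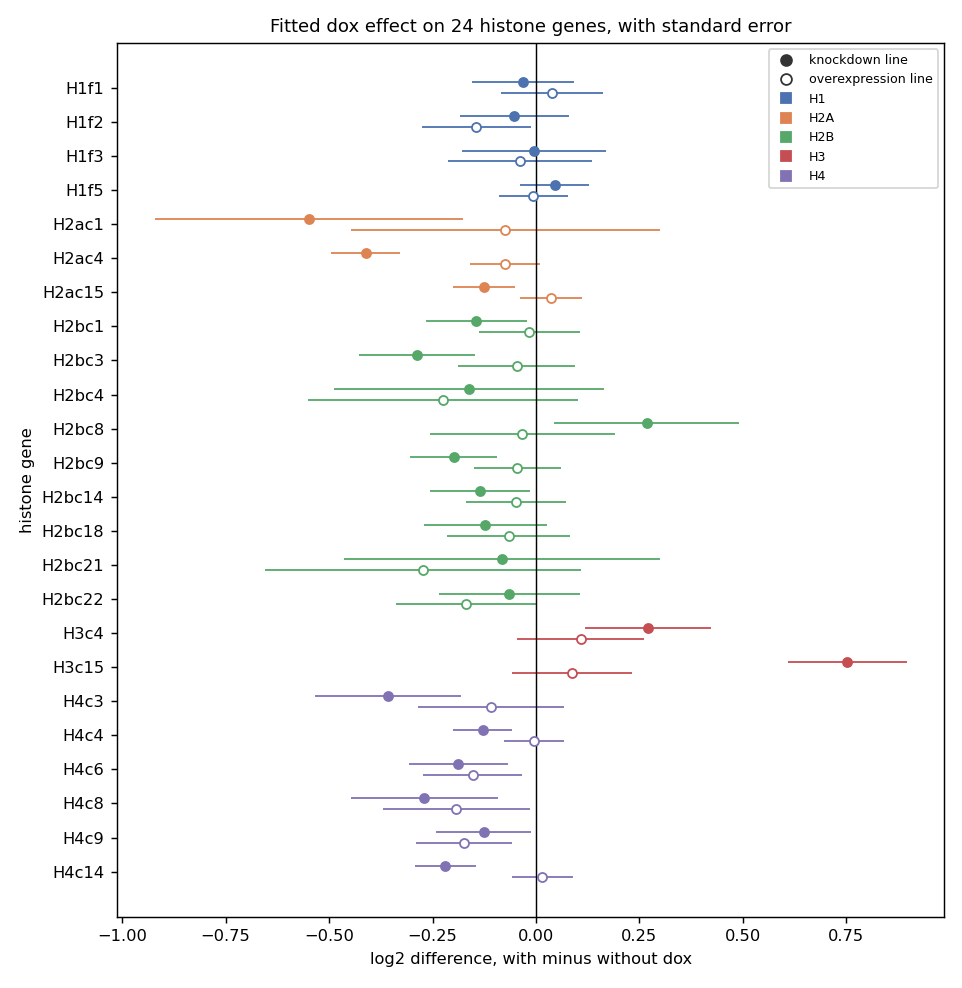
Fitted log2 difference with minus without dox (horizontal axis, bars give the standard error) of 24 histone genes (vertical axis, coloured by histone type) in the knockdown line (filled) and the overexpression line (open). In the knockdown line 20 genes lie below 0 and H3c15 is highest at 0.75, while in the overexpression line the genes lie between -0.27 and 0.11.

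The difference between the lines in the dox effect was tested in the same model. No gene was called by limma for it, and 340 genes (2.13%) had an unadjusted p under 0.05. Of those, 3 were members, 1 higher (1.13% of all genes) and 2 lower (0.997% of all genes). H3c15 differed by 0.67 ± 0.204 (SE), H2ac4 by -0.34 ± 0.119 (SE) and H4c14 by -0.23 ± 0.105 (SE), knockdown minus overexpression, each at a limma adjusted p of 0.9995. H3c15 carries the limit of its controls below the filter here too. With arrays centred on their medians, 1 member had such a p. The median over the 24 genes was -0.064 and 14 lay below 0 (49.9% of all genes did). That count was 18 with no further normalization and 8 with arrays centred on their medians. These values share arrays with both dox effects.

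Untreated arrays of the knockdown line stood apart from all others for several members. The 3 knockdown controls lay above all 9 other arrays for H2ac4, H2ac15, H4c4 and H4c14 (16.7% of the 24, against 0.734% of all genes). They lay below all 9 for H3c15 (1.19% of all genes). That gene passed the filter through those 9 arrays, with its controls below it, so its place here is a description. H2ac4 and H3c15 did so under each of the 3 scalings, whereas centring arrays on their medians left H2ac4 and H4c3 in the first group. For H4c14 the dox arrays of the knockdown line, at 12.42 to 12.44, lay within the range of the overexpression line (12.41 to 12.48). For H3c15 they lay at 6.57 to 6.94, and the overexpression line at 6.57 to 6.73. Since this count uses the knockdown controls, it shares arrays with the dox effect above.

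The lines were also compared on day 4 in the model, knockdown minus overexpression, at the untreated baseline. Here 49 of 15950 genes were called by limma (0.307%; 0.0376% higher and 0.27% lower), none of them a histone gene. Of the 24 members, 8 lay below 0 (46.9% of all genes did). At an unadjusted p under 0.05, 5 members were higher in the knockdown line (5.60% of all genes) and 1 was lower (6.02% of all genes). H2ac4 was nearest to the threshold, at 0.53 ± 0.103 (SE; limma adjusted p = 0.0777). H2ac1 differed by 1.08 ± 0.457 (SE), H4c3 by 0.57 ± 0.216 (SE), and H2ac15 and H4c14 by 0.22 each. H3c15 lay at -0.61 ± 0.176 (SE; limma adjusted p = 0.214), with its knockdown controls below the filter level, as above. All 3 H2A genes and 5 of 6 H4 genes lay higher in the knockdown line and both H3 genes lower, under each scaling. The 10 probe sets annotated to several H3 genes lay higher in the knockdown line instead, as given below. The day 4 overexpression baseline rests on 1 control and 1 dox array. Markers of cell types differed between the lines as well. Of 10 germ layer markers, 6 lay lower in the knockdown line (median -0.53), among them Kdr, a receptor of early mesoderm (-2.43 ± 0.341, SE; limma adjusted p = 0.0203), Mixl1 (-3.16) and Eomes (-2.27). Of 8 visceral endoderm markers, 6 lay higher (median 0.42), among them Cubn (2.38) and Lama1 (1.93), none called. The part of cell type composition was not tested. Without either day 4 array of the overexpression line no gene was called, and without other single arrays, both lines included, up to 80 genes were.

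**Figure D3:**
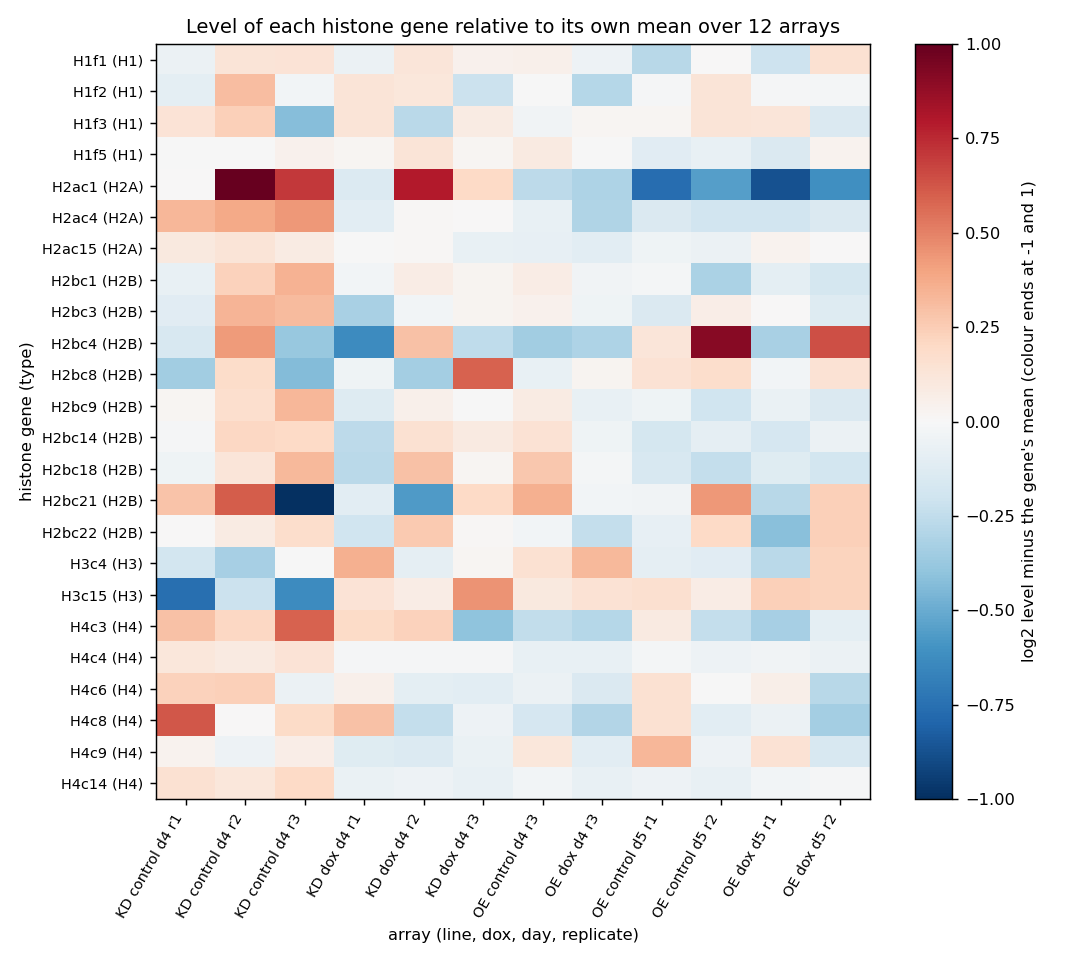
Log2 level of each of 24 histone genes (rows) in each of 12 arrays (columns) minus that gene's mean over the arrays, from blue (below) to red (above), with the colour limited at -1 and 1. H2ac4 and H4c14 are red and H3c15 is blue in the 3 knockdown controls, and H2bc4 differs between replicates of both lines.

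Day 5 against day 4 of the overexpression line gave no called member. In all, 89 genes were called by limma (0.558%; 0.395% higher and 0.163% lower). At an unadjusted p under 0.05 stood 2264 genes (14.2%; 7.52% higher and 6.68% lower) and no member. The median over the 24 genes was 0.026, and 10 lay below 0 (50.2% of all genes did). The median turned to -0.0074 without the day 4 dox array. Without either day 4 array, or without the day 5 control of replicate 1, no gene was called, and without other single arrays of both lines up to 148 were. All 6 H4 genes lay higher on day 5 (median 0.073), under each scaling, and 6 of 9 H2B genes lay lower. H2bc4 had the largest difference, 0.66 ± 0.347 (SE). It passed the filter through the arrays where it is high, as given below. H1f2 differed by 0.17 ± 0.140 (SE), H2bc18 by -0.30 ± 0.158 (SE) and H3c4 by -0.30 ± 0.162 (SE), all with limma adjusted p of 0.423 or more. The S phase genes differed from this. All 33 lay lower on day 5, with a median of -0.23, and 31 did when arrays were centred on their medians. Of these, Ccne1 was called (-0.85 ± 0.122, SE; limma adjusted p = 0.0233), a cyclin that drives entry into S phase and acts upstream of histone gene transcription through Npat. Of the 21 histone chaperones, 18 lay lower (median -0.22), and of the 20 histone mRNA synthesis and processing genes, 13 did (median -0.13).

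Replicate 2 against replicate 1 was the comparison in which histone genes were called in the main fits. Array weights, an alternative, also called H2bc4 between days, among 2567 of 15950 genes. They called H2ac4 and H3c15 between lines, among 1170 of 15950 genes. H2bc4 and H3c15 passed the filter through the arrays where they are high. Each replicate of a line was 1 dox and 1 untreated array. The p-values of replicate 2 against replicate 1 therefore rest on the spread left within replicates, and do not cover the spread between replicates. In the knockdown line 1205 genes were called by limma (7.55%), 3 of them members (12.5%), 2 higher (3.57% of all genes) and 1 lower (3.99% of all genes). Of the 24, 9 lay below 0 (51.7% of all genes did). H2ac1 was higher in replicate 2. It read 9.06 and 8.92 in replicate 1, 10.84 and 9.85 in replicate 2 and 9.76 and 9.25 in replicate 3, without and with dox. The difference was 1.36 ± 0.175 (SE; limma adjusted p = 0.00949), or 2.56-fold. H2bc4, a canonical H2B gene, read 6.55 and 6.08 in replicate 1 and 7.14 and 6.997 in replicate 2. Its fitted difference was 0.75 ± 0.160 (SE; limma adjusted p = 0.037), and the adjusted p was 0.0606 with no level filter. H2bc4 averaged 6.42 over the 8 arrays outside replicate 2, below the filter of 6.46, and 7.28 over the 4 arrays of replicate 2. It passed the filter through the arrays where it is high, so its values in both lines are a description. H4c8, a canonical H4 gene, read 8.74 and 8.42 in replicate 1 and 8.13 and 7.89 in replicate 2. It differed by -0.57 ± 0.074 (SE; limma adjusted p = 0.00962). For each of the 3 genes both arrays of replicate 2 lay on the same side of both arrays of replicate 1. The genes were picked by their call on these arrays, so this is a description only.

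In the overexpression line on day 5, 2179 genes were called for the same comparison (13.7%), 2 of them members (8.33%), 1 higher (8.06% of all genes) and 1 lower (5.60% of all genes). Of the 24, 12 lay below 0 (49.7% of all genes did), and 6 had an unadjusted p under 0.05 (31.8% of all genes). H2bc4 read 7.62 and 7.35 in replicate 2 and 6.83 and 6.38 in replicate 1. Its difference was 0.88 ± 0.160 (SE; limma adjusted p = 0.0177, and 0.031 with no level filter), with the limit given above. H4c9 was lower, at 8.34 and 8.22 against 8.72 and 8.53, a difference of -0.34 ± 0.073 (SE; limma adjusted p = 0.0273). With arrays centred on their medians the difference was -0.20 and the call was lost (limma adjusted p = 0.383). H1f1 (0.32 ± 0.085, SE; limma adjusted p = 0.0502) and H4c8 (-0.27 ± 0.074, SE; limma adjusted p = 0.0571) lay just outside the threshold. H2ac1 differed by 0.24 ± 0.175 (SE) here. Whether the 2 lines differ in these contrasts was not tested.

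**Figure D4:**
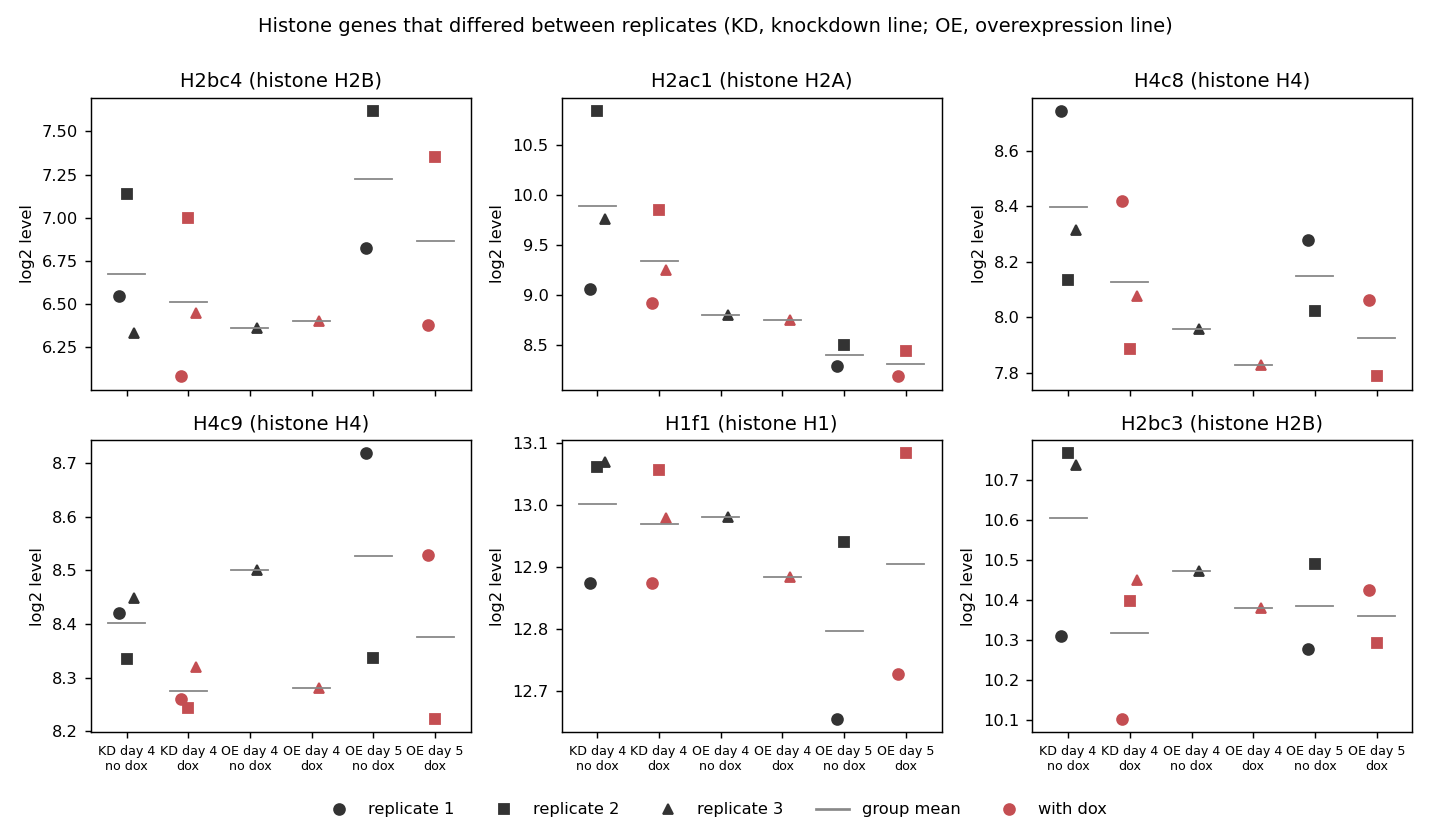
Log2 level (vertical axis, a separate scale in each panel) of 6 histone genes in each of the 12 arrays, by line, day and dox (horizontal axis), with a symbol for each replicate and grey lines for group means. Replicate 2 (squares) of H2bc4 lies above replicate 1 (circles) in all 4 groups that hold both, by 0.88 in the fit of the overexpression line.

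By type, 8 of 9 H2B genes lay higher in replicate 2 of the knockdown line and 6 of 9 in that of the overexpression line, or 5 and 9 of 9 in the latter under the other 2 scalings. All 6 H4 genes lay lower in replicate 2 of both lines, but 4 of 6 in the knockdown line with no further normalization and 3 of 6 in the overexpression line with arrays centred on their medians. That centring moved the median of all genes in the overexpression line to 0.117. It also moved the share of higher calls among all genes from 59.0% to 84.1% there. In the knockdown line that share went from 47.2% to 58.1% with no further normalization.

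**Figure D5:**
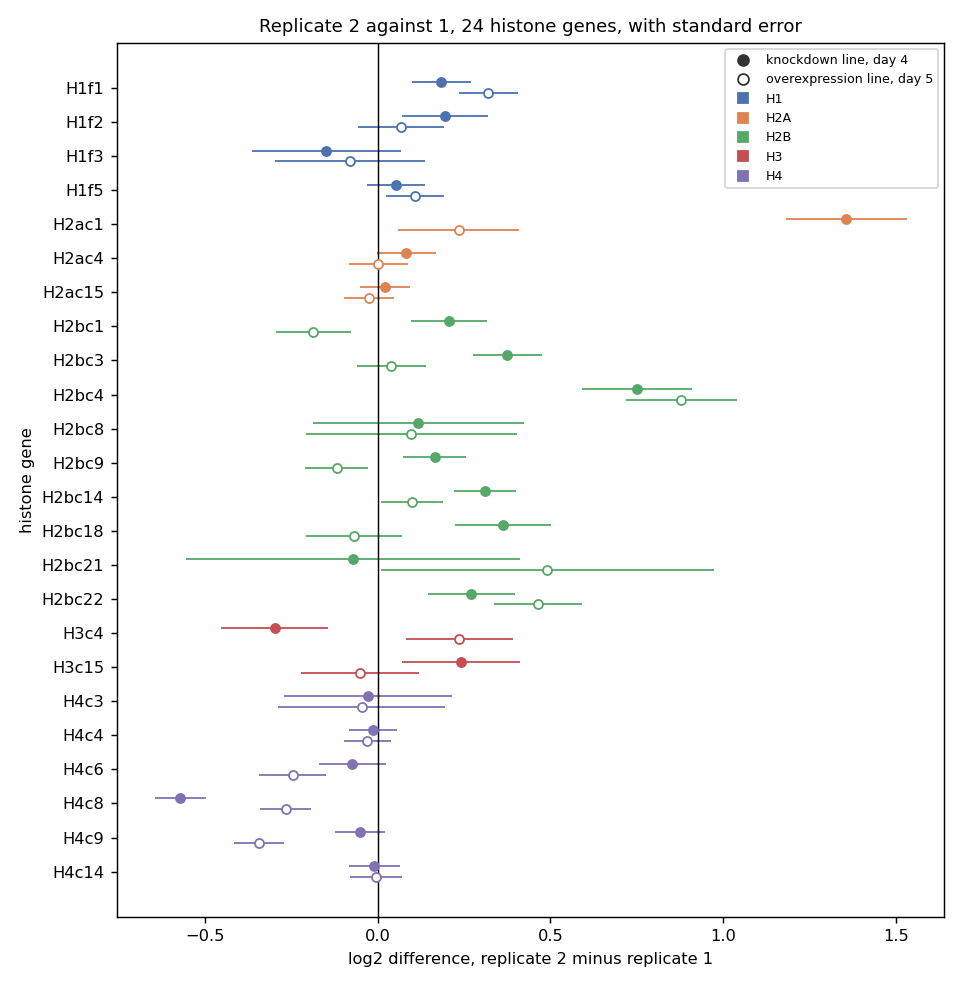
Fitted log2 difference of replicate 2 minus replicate 1 (horizontal axis, bars give the standard error) of 24 histone genes (vertical axis, coloured by histone type) in the knockdown line on day 4 (filled) and the overexpression line on day 5 (open). H2ac1 is highest in the knockdown line at 1.36, H2bc4 lies to the right in both lines, and the H4 genes lie at or to the left of 0.

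The calls between replicates rested on few arrays. Without single arrays, 0 to 3 members were called in the knockdown line, with 70 to 1903 genes called in all: 0 without control replicate 1, and 1 without dox replicate 1 or without control replicate 2. In the overexpression line 0 to 4 were called, while genes called in all ran from 14 to 3240. The count was 0 without any of its 4 day 5 arrays in turn, 1 without either day 4 array or either knockdown array of replicate 1, and 4 without either knockdown array of replicate 3, where 3240 genes were called in all. With the knockdown arrays fitted alone, none of the 3 genes passed (limma adjusted p from 0.0927 to 0.136).

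Markers of cell types differed between the replicates too. In replicate 2 of the knockdown line, 4 of 8 visceral endoderm markers were called higher, among them Cubn (3.06), Sox7 (2.08) and Lama1 (1.81). On the 6 knockdown arrays in the order used for H2ac1, Cubn read 9.01, 8.21, 11.72, 11.61, 9.60 and 9.31. Of 10 germ layer markers, 4 were called lower there, among them Mixl1 (-2.69), Eomes (-1.70) and Fgf5 (-1.55). Over both lists 7 of 8 visceral endoderm markers lay higher (median 0.94) and 7 of 10 germ layer markers lower (median -0.49), with 1 of the latter called higher. In the overexpression line 4 visceral endoderm markers lay higher and 4 lower (median 0.16), with Cubn (1.46) and Sox7 (1.06) called higher. Of 10 germ layer markers there, 7 lay lower (median -0.34), with 4 called lower, among them Fgf5 (-1.61) and Foxa2 (-1.16), and Kdr called higher (0.73). The replication-independent linker histone H1f10 was called higher in replicate 2 of both lines (0.55 and 0.76; limma adjusted p = 0.0187 and 0.00584). The part of cell type composition in the histone differences between replicates was not tested.

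Because histone genes of a type are near-identical in coding sequence, probe sets can also read copies other than the gene they are named for, and levels of single genes are uncertain to that extent. A further 26 probe sets were annotated to several histone genes (1 for H1, 2 for H2A, 7 for H2B, 10 for H3 and 6 for H4). They were fitted over all 28409 probe sets above the filter, and none was called in any of the 7 comparisons. Most probe sets of a type moved closely together, and some had identical values on all 12 arrays. The counts below are therefore not counts of separate measurements, and shares over all probe sets are no like measure for them. In the knockdown line 25 of the 26 lay lower with dox, with a median of -0.067 and a lowest value of -0.13, and 18 were lower in all 3 replicates (13.1% of all probe sets were). With arrays centred on their medians 3 of 26 lay below 0, though 24 lay below the median of all genes. The 10 shared H3 probe sets all lay lower with dox (median -0.053), unlike H3c4 and H3c15. Between lines on day 4 all 10 lay higher in the knockdown line under each scaling (median 0.16), where H3c4 and H3c15 lay lower. For the difference between the dox effects all 10 lay below 0 (median -0.12), where H3c4 and H3c15 lay above it. With arrays centred on their medians all 10 lay above 0 for that difference and for knockdown dox. In the overexpression line 21 of the 26 lay higher with dox (median 0.05), and 12 did with arrays centred on their medians. Between replicates, all 7 shared H2B probe sets lay higher in replicate 2 of both lines under each scaling. All 10 shared H3 and all 6 shared H4 probe sets lay lower in replicate 2 of both lines, but with arrays centred on their medians 0 of 10 and 1 of 6 did in the overexpression line.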

How the data were processed

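Total RNA, 1 µg per sample, was labelled by a whole-transcript method, per the labels' protocols, and measured with the Mouse Gene 1.0 ST array of Affymetrix. The authors deposited linear intensity values, 1 per probe set and array. Information on their summarisation and normalization was not given in the sources used here. Values were taken as log2(intensity + 1) and quantile normalized, since array medians on this scale spanned 0.324. Platform annotation named 1 gene for 21789 of 35512 probe sets, several for 1621 and none for 12102. The brightest probe set stood for a gene. Genes with a mean below the 20th percentile were left out.

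One limma model (limma 3.58.1, R 4.3.3) was fitted to all 12 arrays, with a baseline for each line and day and a dox effect for each line (7 residual degrees of freedom). A second, with a term for each replicate within a line, gave the replicate contrasts (4 residual degrees of freedom). P-values were adjusted by Benjamini-Hochberg over 15950 genes. The number of arrays limits the precision. Both fits were tried on simulated data with independent noise, at the spread left after a replicate block, and with no replicate effects. That cannot show how the fit without a block behaves where replicates differ. Alternatives were other scalings, a pseudocount of 16, no filter, the mean of a gene's probe sets, array weights, a replicate block, arrays of a line alone, day 5 alone, and leaving out each array. Genes named are Gmnn, the brightest member of each type, and the 2 members with the smallest p in each direction of each contrast. Others, among them H4c4, H2bc3, H2bc21 and the markers, were named after their values were seen. The members, gene lists and tests were chosen with earlier results of these data known.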

Additional observations from a re-analysis of the deposited data

How the results depend on the processing

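No dox call on a histone gene appeared under the settings tried. Of the members named for a comparison by the smallest p, H3c4 changed sign for dox in the overexpression line (-0.025 to 0.258 without single arrays). Members near 0 changed sign with median centring, which put all 4 H1 genes above 0 for knockdown dox and all 4 H1, 3 H2A and 6 H4 genes below 0 for overexpression dox. Same-numbered arrays deviated together in knockdown replicates 1 and 2 (r = 0.602 and 0.438) but not in replicate 3 (0.051). On day 5 of the overexpression line r was 0.785 for the same number. With 2 arrays per group, the -0.785 for different numbers follows from it. The highest r of each array was with its own number, but in knockdown replicate 3 all were low (0.051, against up to 0.0243 for the control and 0.0208 for the dox array). The main dox tests did not take the numbers as pairing, whereas the replicate contrasts and the counts over replicates used them. With a replicate block, 8 members had an unadjusted limma p under 0.05 for dox in the knockdown line, among 1941 genes (7.52% of all genes higher and 4.65% lower). Of the 8, H3c15 alone was higher. In the overexpression line 2 members did, H4c8 and H4c9, both lower, among 572 genes (1.89% of all genes higher and 1.69% lower). None was called. The smallest adjusted p there was 0.189, for H2ac4, by limma. The block left 1 gene called in each line, as without it.

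Without single arrays, genes called ranged from 0 to 1 for dox in the overexpression line, 0 to 148 for day, 0 to 80 between lines, 70 to 1903 for knockdown replicates (members 0 to 3) and 14 to 3240 for overexpression replicates (members 0 to 4). With no level filter, calls were 27 for day, 29 between lines, and 739 and 1417 for the replicates of the knockdown and overexpression lines. Array weights gave 201 genes for dox in the overexpression line, 2567 for day (1 member), 1170 between lines (2 members) and 4730 for the overexpression replicates (6 members). Arrays of a line alone gave 0 for dox in each line, 19 for day, 25 genes and 0 members for the knockdown replicates, and 3187 genes and 4 members for the overexpression replicates. Day 5 alone gave 0 for dox. No further normalization gave 30 genes between lines. Median centring gave 33 for day, left 8 members below 0 for the difference between dox effects and 5 for the overexpression replicates, and moved the latter's median to 0.18. The causes were not tested. Signal near background limits H3c15, H2bc8, H2bc4 and H2bc21.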
